A study of Homo sapiens with 8 samples.

Results

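BNC2 and 9 other transcription factors that mark the stellate and mesothelial lineage of the liver were followed in LX-2, an immortalized human line derived from hepatic stellate cells (HSCs), when O-GlcNAc transferase (OGT) was inhibited. The 10 genes were chosen by name, as BNC1, BNC2, TCF21, LHX2, GATA4, GATA6, HAND2, FOXF1, PPARG and WT1, and each had a row among the 16796 genes of the count files. Control cells received the vehicle DMSO and OGTi cells received the OGT inhibitor OSMI-1 at 50 µM, both for 24 h in medium with 5% serum. RNA sequencing gave 4 libraries per group, numbered so that a control and an OGTi library share a replicate number, and the libraries held 24166756 to 28201215 counts each. A single line was used throughout, so the values describe these cultures and not HSCs of a liver, and p-values measure the spread between cultures of this line. The vehicle of control replicate 4 is spelled DSMO in its label and was read as the same vehicle.

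HSCs are the vitamin A storing pericytes of the liver, and they descend from mesoderm of the septum transversum through the mesothelium that covers the organ. When the liver is injured they turn into myofibroblasts, which deposit collagen. Each of the factors studied here binds DNA at a stage of that history. WT1, GATA4, TCF21 and HAND2 are known from the embryonic mesothelium and its descendants, LHX2 is needed to keep HSCs quiescent in the developing liver, FOXF1 and GATA6 belong to visceral mesoderm, and PPARG is a nuclear receptor of quiescent, lipid storing HSCs. BNC2 and BNC1 are basonuclins, zinc finger proteins, and BNC2 is a factor of the myofibroblastic state. OGT is the enzyme that places O-GlcNAc, a single sugar, on proteins of the nucleus and cytoplasm, transcription factors among them, and the comparison asks which of the genes for these factors change in messenger level when that activity is inhibited.

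The sequence before the start of a gene is where general promoter elements lie. The 250 bases before the RefSeq start (GRCh38.p14) are shown for both basonuclins, which changed by a similar amount, for TCF21, which fell at a much lower level, and for LHX2, whose change was not past the threshold. Each is written 5′ to 3′ on the strand of the gene and ends at the base before the start. Capitals mark every match, on either strand, to the GC box GGGCGG, the CCAAT box, the TATA box TATAAA, the GATA core AGATAA and the TEAD core GGAATG.
BNC2 promoter, chr9:16870671-16870920, minus strand: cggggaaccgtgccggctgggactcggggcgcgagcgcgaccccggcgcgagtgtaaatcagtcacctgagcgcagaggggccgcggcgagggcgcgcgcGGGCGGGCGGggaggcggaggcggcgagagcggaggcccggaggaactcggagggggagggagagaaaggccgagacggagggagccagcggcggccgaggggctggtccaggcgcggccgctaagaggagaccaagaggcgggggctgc
BNC1 promoter, chr15:83284665-83284914, minus strand: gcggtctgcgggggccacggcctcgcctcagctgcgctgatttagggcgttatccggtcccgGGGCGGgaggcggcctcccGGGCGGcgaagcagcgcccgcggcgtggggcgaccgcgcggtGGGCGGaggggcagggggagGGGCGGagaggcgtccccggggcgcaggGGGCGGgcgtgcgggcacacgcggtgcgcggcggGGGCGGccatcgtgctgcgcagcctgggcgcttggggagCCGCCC
TCF21 promoter, chr6:133888863-133889112, plus strand: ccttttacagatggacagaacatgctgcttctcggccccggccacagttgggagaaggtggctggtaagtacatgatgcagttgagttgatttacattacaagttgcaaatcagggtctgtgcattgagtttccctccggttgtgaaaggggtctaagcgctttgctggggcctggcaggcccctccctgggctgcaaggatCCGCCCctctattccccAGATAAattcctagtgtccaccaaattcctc
LHX2 promoter, chr9:124011518-124011767, plus strand: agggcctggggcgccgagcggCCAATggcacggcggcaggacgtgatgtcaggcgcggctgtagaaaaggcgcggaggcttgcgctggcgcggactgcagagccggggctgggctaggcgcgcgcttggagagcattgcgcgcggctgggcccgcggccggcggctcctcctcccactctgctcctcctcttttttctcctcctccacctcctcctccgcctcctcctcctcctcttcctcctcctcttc

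The BNC2 window had a GC content of 76.8% with 36 CpG dinucleotides and held 2 GC boxes that overlap each other. The RefSeq start of BNC2, 16870670, lies inside the gene as annotated by GENCODE, which on the minus strand begins at 16870843. Part of the BNC2 window, with both GC boxes, is therefore within that annotated gene and not before it. The BNC1 window was alike in composition, with 81.6% GC, 39 CpG and 7 GC boxes. BNC1 has another RefSeq start inside the gene, whose window had 72.4% GC and 1 GC box. The TCF21 window was at 52.8% GC with 5 CpG, and it held 1 GC box and 1 AGATAA. The LHX2 window had 70.4% GC, 25 CpG and a single CCAAT box. Its RefSeq start, 124011768, lies inside the gene as annotated by GENCODE, which begins at 124001670, so the window is not the sequence before that annotated gene. Over all 35116 RefSeq windows of the same length the median GC content was 58.0% and the median number of CpG was 11. A GC box was present in 42.6% of those windows, CCAAT in 32.0%, GGAATG in 11.9%, TATAAA in 10.7% and AGATAA in 9.17%. The E-box CANNTG, which basic helix-loop-helix proteins such as TCF21 and HAND2 bind and which is not capitalized, was present in 61.8% of windows. It had 1 match in the BNC2 window, 1 in that of BNC1, 3 in that of TCF21 and 0 in that of LHX2. None of the 4 windows shown held GGAATG or TATAAA. Sequence was at hand for 8 of the 10 genes, at 17 starts in all. PPARG has 6 starts, with 41.6% to 57.2% GC, and WT1 has 4, with 46.8% to 70.4%. The count files hold 1 value per gene and so do not tell which start was used.

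Of the 10 genes, 9 had enough reads to be tested. OGTi lowered BNC2, BNC1, PPARG and TCF21, raised GATA4, and left LHX2, FOXF1, GATA6 and WT1 without a change past the threshold. HAND2 was practically unread, and the call of TCF21 rested on few reads and was lost without any 1 replicate. Levels are given as mean ± SD of 4 libraries, and log2 fold changes of OGTi over control with ± their standard error. A gene was called when its adjusted p-value q, from the Wald test of DESeq2 with replicate number as a block and Benjamini-Hochberg adjustment over all genes, was 0.05 or lower. Calls were frequent in these libraries: 24.0% of the 14028 genes with a q were called lower and 22.7% were called higher, 46.6% together. The 5 calls among 9 genes are therefore near the share of all genes. The median log2 fold change of the 9 was -0.29, against 0.0045 over all genes tested. For 4 genes, all lower in OGTi, the libraries of both groups did not overlap, and among all 14895 genes tested this was so for 38.0%, with 19.2% lower and 18.8% higher. In such bulk samples fewer cells of a type and less RNA per cell cannot be told apart.

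**Figure D1:**
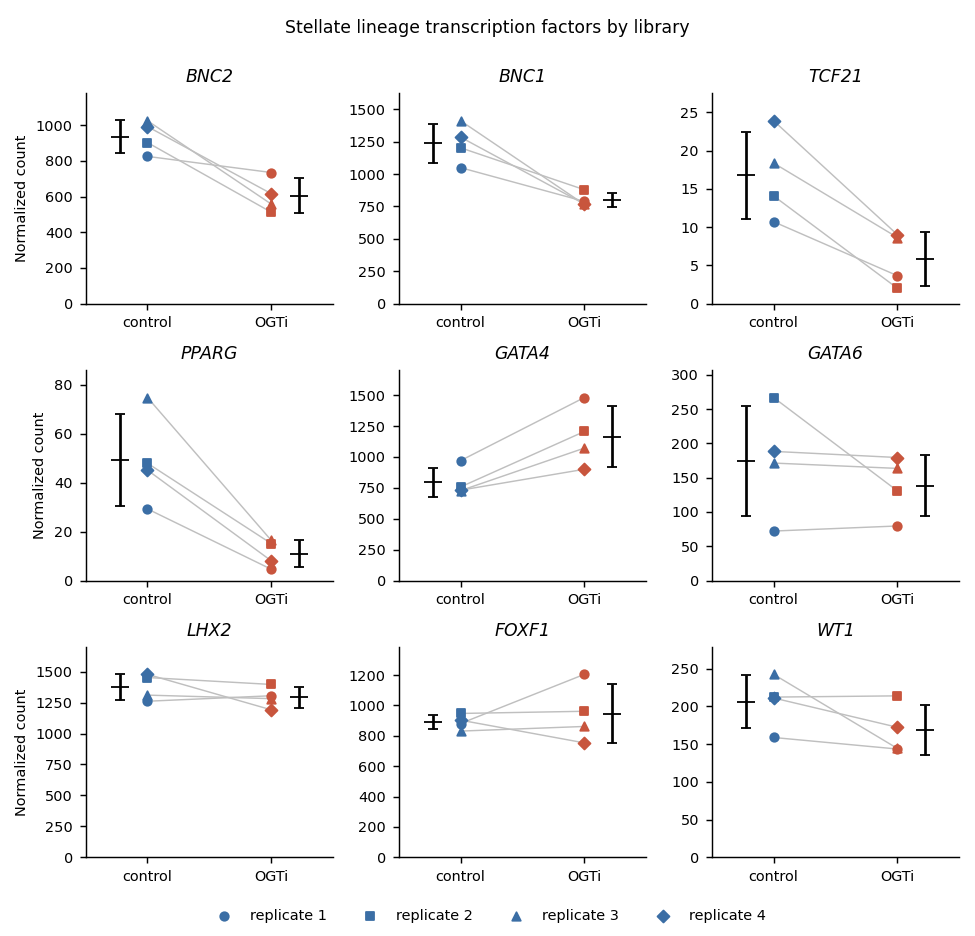
Normalized count (reads per gene divided by the size factor of the library) of the 9 factors tested, with control libraries in blue, OGTi libraries in red, a grey line joining libraries of the same replicate number and black marks for the mean ± SD of 4 libraries. The 4 OGTi points of BNC2, BNC1, TCF21 and PPARG lie under all 4 control points, whereas every GATA4 line rises.

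BNC2 lies on chromosome 9 from 16409503 to 16870843 (GRCh38, minus strand), where it spans 461 kb with 16 annotated transcripts. It had 825, 903, 1025 and 992 normalized counts in control replicates 1 to 4, and 735, 512, 558 and 616 in OGTi replicates 1 to 4. Every OGTi library was below every control library, and the first pair, with the lowest control and the highest OGTi value, was the closest. The means were 936 ± 90.3 and 605 ± 96.3 (SD, n = 4 each). The DESeq2 log2 fold change was -0.64 ± 0.13 (standard error), with a q of 2.37e-06, and the control level was 1.55 times that of OGTi in the fit. Within pairs the log2 ratio was -0.17, -0.82, -0.88 and -0.69, so the fall was small in replicate 1 and of about the same size in the other 3. Without replicate 1 the log2 fold change was -0.79, and leaving out any other replicate gave -0.62 to -0.56.

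BNC1, the other basonuclin, is a smaller gene on chromosome 15, from 83255884 to 83284664. Its control libraries held 1049, 1202, 1411 and 1284 normalized counts and its OGTi libraries held 789, 879, 765 and 768. The OGTi values lay close together and all were below the controls. The mean fell from 1237 ± 152 to 800 ± 53.4 (SD, n = 4 each), and the log2 fold change was -0.62 ± 0.11, with a DESeq2 q of 4.15e-08. BNC1 was lower in 4 of 4 pairs. The log2 ratio of BNC2 to BNC1 counts within a library averaged -0.40 ± 0.05 in control and -0.41 ± 0.28 in OGTi libraries (SD, n = 4 each). The difference of -0.02 did not pass a two-sided exact permutation test (p = 0.914), with ratios from -0.46 to -0.35 in control and from -0.78 to -0.10 in OGTi libraries. The ratio is of counts and takes no account of transcript length.

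TCF21 (chromosome 6, 133889113 to 133895553) encodes a basic helix-loop-helix factor of HSC and mesothelial precursors, and in LX-2 cells it was close to the limit of detection. The files gave 11, 15, 16 and 23 counts in the control libraries and 4, 2, 9 and 9 in the OGTi libraries. After scaling these were 10.7, 14.1, 18.4 and 23.9 against 3.7, 2.0, 8.7 and 9.0 normalized counts, which do not overlap. The log2 fold change was -1.64 ± 0.70 with a DESeq2 q of 0.0435, just inside the threshold. Leaving out any 1 of the 4 replicates ended the call, at a log2 fold change of -1.86 to -1.34 and q of 0.0919 to 0.198.

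PPARG was also rare. It spans 147 kb of chromosome 3 (12287368 to 12434356) and had 29.2, 47.9, 74.7 and 45.1 normalized counts in control cells against 4.6, 15.1, 16.3 and 8.0 in OGTi cells. The highest OGTi library stood below the lowest control library. The mean went from 49.2 ± 18.9 to 11.0 ± 5.63 (SD, n = 4 each), and the log2 fold change was -2.22 ± 0.45 with a DESeq2 q of 5.70e-06. It was the largest change among the 9 genes in the fit, and it remained past the threshold when any 1 replicate was left out, at -2.42 to -2.10. The counts behind it are few, 5.01 to 17 per OGTi library, and in 3 libraries the deposited estimate was not a whole number, as reads were shared with other genes.

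HAND2, a partner of GATA4 in the mesoderm (chromosome 4, 173524969 to 173530229), gave 1 count in control replicate 2 and 0 counts in the other 7 libraries. In the OGTi group 0 of 104838496 counts were for HAND2. The upper end of the 95% Poisson interval is 3.69 counts in that total, a limit that covers counting error only. No change could be tested.

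GATA4 was the only gene of the 9 called higher. GATA4 and GATA6 are zinc finger factors that bind the same core sequence. GATA4 (chromosome 8, 11676959 to 11760002) had 970, 757, 727 and 731 normalized counts in control replicates 1 to 4 and 1481, 1206, 1072 and 901 in OGTi replicates 1 to 4. The groups overlapped, since control replicate 1 was above OGTi replicate 4, but GATA4 was higher in OGTi in 4 of 4 pairs. The mean rose from 797 ± 117 to 1165 ± 245 (SD, n = 4 each), and the log2 fold change was 0.54 ± 0.10 with a DESeq2 q of 5.32e-07. Within pairs the log2 ratio was 0.61, 0.67, 0.56 and 0.30.

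GATA6 (chromosome 18, 22169589 to 22202528) was lower in level and more variable, with 72.1, 267, 171 and 188 normalized counts in control libraries and 79.5, 131, 163 and 179 in OGTi libraries. Replicate 1 was the lowest in both groups. The log2 fold change of -0.27 ± 0.22 was not past the threshold (DESeq2 q = 0.341), with a 95% interval of -0.71 to 0.17. Without replicate 2 the estimate was -0.0043. The log2 ratio of GATA4 to GATA6 counts averaged 2.32 ± 0.98 in control and 3.12 ± 0.82 in OGTi libraries (SD, n = 4 each), higher in 4 of 4 pairs, and this difference did not pass a two-sided exact permutation test over the 8 libraries (p = 0.257, 0.309 after adjustment over the 6 ratios tested). The tests of ratios compare the groups without regard to the pairing, so the spread between replicates stays in them.

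**Figure D2:**
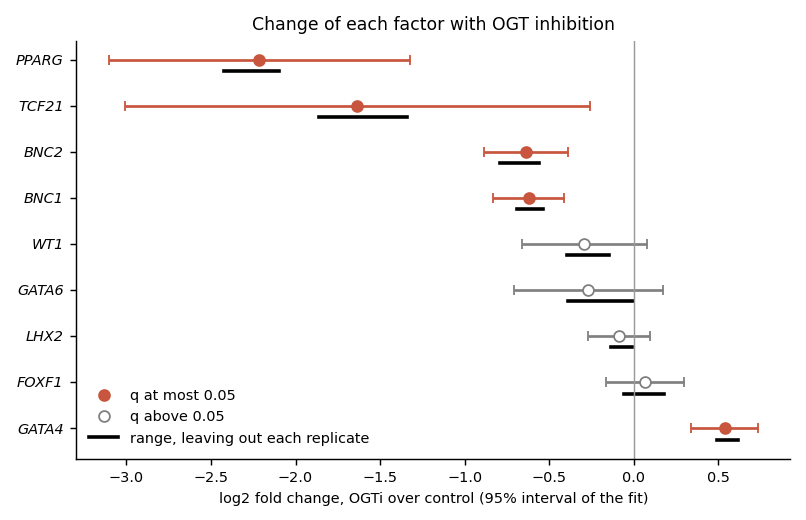
DESeq2 log2 fold change of OGTi over control for the 9 factors tested, as points with 95% intervals, filled red where q was at most 0.05, and a black bar below each point for the range of the estimate when each replicate in turn was left out. PPARG and TCF21 have the widest intervals, the basonuclins sit together at -0.64 and -0.62, and GATA4 is the only filled point above 0.

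LHX2, a LIM-homeodomain factor (chromosome 9, 124001670 to 124033301), had the highest mean count of the set. Its control libraries held 1261, 1452, 1310 and 1478 normalized counts and its OGTi libraries 1305, 1396, 1282 and 1191. The groups overlapped, and the log2 fold change of -0.09 ± 0.09 was not past the threshold (DESeq2 q = 0.467). Its 95% interval, -0.27 to 0.09, leaves out a change of the size seen for BNC2.

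FOXF1, a forkhead factor (chromosome 16, 86510527 to 86515422), had 881, 947, 831 and 903 normalized counts in control cells and 1204, 961, 861 and 753 in OGTi cells. The OGTi libraries were spread on both sides of the controls. The log2 fold change was 0.07 ± 0.12 (DESeq2 q = 0.671, 95% interval -0.16 to 0.30), and it turned to -0.061 without replicate 1. WT1, a zinc finger factor of the mesothelium (chromosome 11, 32387775 to 32435564), had 159, 212, 243 and 211 normalized counts in control and 143, 214, 144 and 172 in OGTi libraries. It was lower in 3 of 4 pairs, with a log2 fold change of -0.29 ± 0.19 that was not past the threshold (DESeq2 q = 0.202, 95% interval -0.66 to 0.08).

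GATA4, FOXF1, LHX2 and WT1 were also set against BNC2 within the same library, as ratios of counts that carry the fall of BNC2 in them and so are not separate evidence for a change of the other gene. The log2 ratio of GATA4 to BNC2 went from -0.24 ± 0.33 to 0.93 ± 0.29 (SD, n = 4 each). That of FOXF1 to BNC2 went from -0.07 ± 0.19 to 0.63 ± 0.26, and that of LHX2 to BNC2 from 0.56 ± 0.14 to 1.11 ± 0.27. In these 3 ratios every OGTi library was above every control library, but none passed after adjustment over the 6 ratios (two-sided exact permutation p = 0.0286 for each, the smallest that 4 libraries against 4 allow, adjusted 0.0571). WT1 to BNC2 was at -2.19 ± 0.14 in control and -1.85 ± 0.45 in OGTi libraries, with an exact permutation p of 0.171 (adjusted 0.257).

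**Figure D3:**
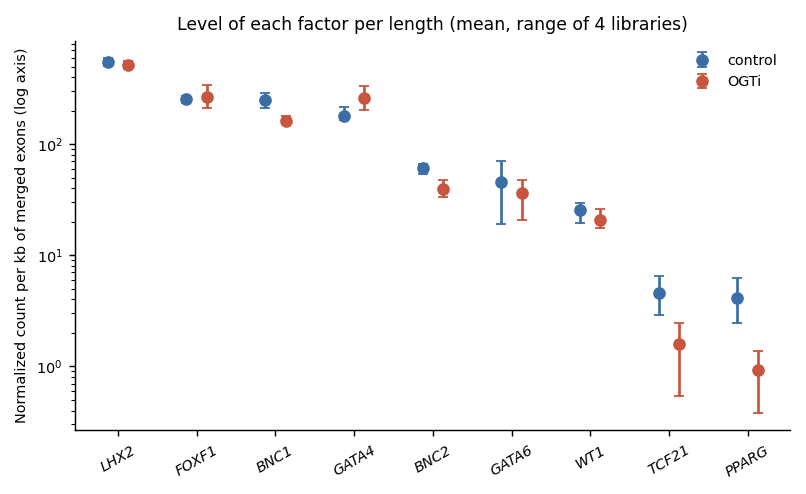
Normalized count per kb of merged annotated exons on a log axis, as the mean of 4 libraries with a bar from the lowest to the highest library, control in blue and OGTi in red, ordered by the control mean. LHX2 stands at the top and TCF21 and PPARG at the bottom in both groups, and BNC1 and GATA4 change places.

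To compare levels between genes, counts were divided by the length of all annotated exons merged. In control cells LHX2 was highest at 551 ± 42.6 normalized counts per kb, above all others in every library. FOXF1 (253 ± 13.7), BNC1 (252 ± 30.9) and GATA4 (179 ± 26.2) followed, with neighbours overlapping between libraries. BNC2 (61.1 ± 5.89), GATA6 (46.0 ± 21.1) and WT1 (25.4 ± 4.27) formed the next overlapping run, and TCF21 (4.56 ± 1.55) and PPARG (4.11 ± 1.57) were lowest and overlapped each other. BNC2 thus stood below BNC1 by more than the spread between libraries, although their counts are of similar size. In OGTi cells GATA4, at 262 ± 55.2 per kb, stood above BNC1, at 163 ± 10.9, without overlap. The order depends on length: with the longest transcript in place of merged exons BNC1 came before FOXF1, WT1 before GATA6 and PPARG before TCF21 in control cells.

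The genes that act with these factors were described from lists drawn up by role. Calls in each list stand beside 24.0% called lower and 22.7% called higher among all genes with a q. TCF21 and HAND2 work as dimers with E proteins, which are the products of TCF3, TCF4 and TCF12, and the ID proteins bind E proteins and keep them off DNA. In the list of family members and partners of GATA, HAND, FOXF and TCF21, 14 of 21 genes had a q, of which 7 were called lower, 2 higher and 5 not called, with a median log2 fold change of -0.33 over the genes tested. The count of 7 was 4 to 6 when 1 replicate was left out. TCF12 fell in 4 of 4 pairs, from 2969, 3325, 3389 and 3277 normalized counts to 1986, 1961, 2205 and 2122, and its log2 fold change was -0.65 ± 0.08 (DESeq2 q = 1.20e-16). TCF4 fell by 0.70 on the log2 scale (standard error 0.13, DESeq2 q = 1.08e-06), from 502 ± 116 to 305 ± 47.1.

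The inhibitors did not move as 1 group. ID2 rose from 87.7, 64.8, 42.5 and 78.0 to 113, 154, 170 and 177 normalized counts (log2 fold change 1.18 ± 0.27, DESeq2 q = 4.05e-05), and all OGTi libraries were above all controls. ID1 rose from 743 ± 126 to 1227 ± 259 (log2 fold change 0.72 ± 0.11, DESeq2 q = 7.63e-10). TCF3 and ID3, named after their values were seen, both fell, TCF3 from 7046 ± 636 to 5191 ± 454 (log2 fold change -0.44 ± 0.07, DESeq2 q = 1.12e-09) and ID3 from 1971 ± 429 to 1490 ± 322 (-0.40 ± 0.12, q = 0.00271). ID3 was higher in OGTi in replicate 3, and its call was lost under 5 of the 11 alternatives. Of the other GATA genes, also named after their values were seen, GATA2, which was more abundant in counts than GATA4, fell by 0.42 on the log2 scale (DESeq2 q = 5.41e-06, lower in 4 of 4 pairs). GATA3 had a log2 fold change of -0.40 ± 0.17 with a DESeq2 q of 0.0432 that was lost under 6 alternatives. GATA5 had 1 read or fewer in each library.

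**Figure D4:**
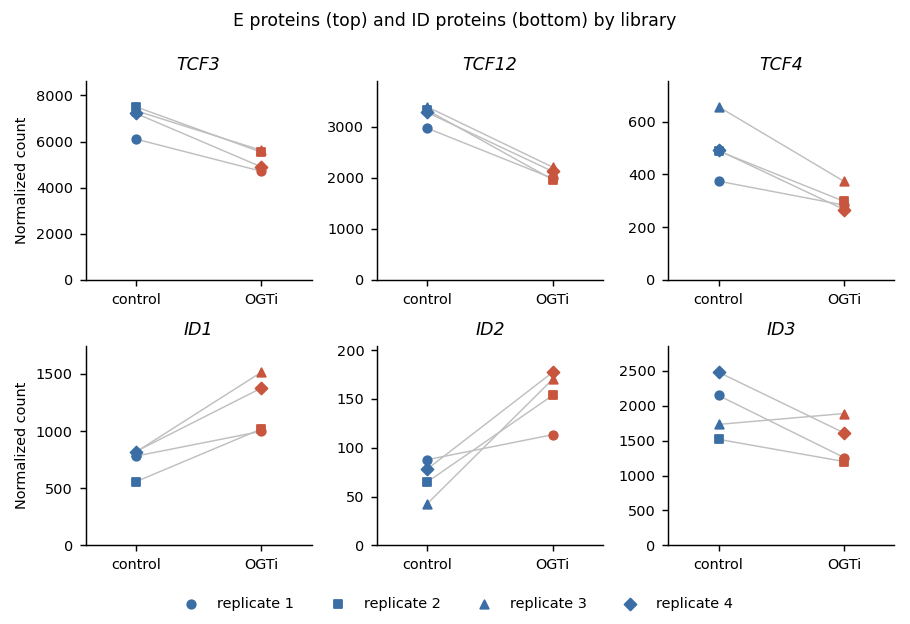
Normalized count of the E protein genes TCF3, TCF12 and TCF4 (top) and of the inhibitor genes ID1, ID2 and ID3 (bottom) in each library, control in blue and OGTi in red, with grey lines joining replicates. The E protein genes fall in 4 of 4 pairs, ID1 and ID2 rise in 4 of 4 and ID3 falls in 3 of 4.

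LIM-homeodomain factors such as LHX2 act through LDB1, a scaffold protein that SSBP proteins stabilize and that LMO proteins compete for. Of 13 genes listed 10 had a q, with 3 called lower, 2 higher and 5 not called, and a median log2 fold change of -0.07. LHX9, the closest relative of LHX2, went from 355, 340, 418 and 297 to 111, 137, 113 and 106 normalized counts. All its OGTi libraries were below all its controls, with a log2 fold change of -1.59 ± 0.17 (DESeq2 q = 2.23e-19). LMO4 rose from 663 ± 112 to 1483 ± 86.4 (log2 fold change 1.17 ± 0.11, DESeq2 q = 8.05e-26). SSBP2 fell by 0.94 on the log2 scale (DESeq2 q = 9.36e-16) while SSBP3 rose by 0.70 (q = 1.42e-18), each in 4 of 4 pairs, and LDB1 itself was not called (log2 fold change 0.04 ± 0.07).

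PPARG binds DNA with RXR receptors and recruits coactivators and corepressors. Of its 16 listed partners 15 had a q, with 2 called lower, 4 higher and 9 not called, and a median log2 fold change of 0.06. RXRA, the main partner, fell from 2306 ± 172 to 1928 ± 97.5 (log2 fold change -0.26 ± 0.08, DESeq2 q = 0.00551), a call lost under 1 of the alternatives. CEBPB, which acts ahead of PPARG in fat cell formation, rose by 0.84 ± 0.10 (DESeq2 q = 6.68e-15), and the coactivator NCOA3 rose by 0.28 ± 0.07 (q = 0.000567).

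The genes that PPARG is known to activate were listed with those of lipid droplets. Of 18 listed 10 had a q. DESeq2 called 0 of these lower, 4 higher and 6 not, with a median log2 fold change of 0.19 over the genes tested. Among all genes with a q, 24.0% were called lower and 22.7% higher. A lower value at an unadjusted p under 0.05 was seen for 1, the lipase gene LIPE (log2 fold change -0.22 ± 0.11), which edgeR with the replicate block called lower and which was named after its values were seen. ANGPTL4, a secreted inhibitor of lipoprotein lipase, was at 2.9, 5.6, 11.5 and 13.5 normalized counts in control and at 219, 55.2, 58.6 and 84.1 in OGTi libraries. The groups were far apart, with a log2 fold change of 3.46 ± 0.48 (DESeq2 q = 9.19e-12), on low control counts. OGTi replicate 1 was the highest, and without replicate 1 the log2 fold change was 2.74. G0S2, an inhibitor of triglyceride breakdown, rose by 0.91 ± 0.26 (q = 0.00181). PNPLA2, the lipase that G0S2 inhibits, and PLIN2, the coat protein of lipid droplets, were named after their values were seen. They rose by 0.51 ± 0.09 (DESeq2 q = 1.67e-08) and 0.30 ± 0.11 (q = 0.0129), the latter lost under 4 alternatives. FABP4, a fat cell target of PPARG, had 1 read or fewer in each library.

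Partners and targets of WT1 comprised 11 genes, 8 of them with a q, with 1 called lower, 3 higher and 4 not called, and a median log2 fold change of 0.25. PAWR, which binds WT1, fell from 3380 ± 550 to 2324 ± 260 (log2 fold change -0.53 ± 0.08, DESeq2 q = 2.53e-10). VDR, the vitamin D receptor, rose from 1680 ± 124 to 3528 ± 194 (1.07 ± 0.07, q = 4.09e-46). PODXL, which codes for podocalyxin, rose by 0.75 ± 0.24 (q = 0.00437), with overlapping libraries.

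Other transcription factors of mesenchymal lineages moved in both directions. Of 35 listed 29 had a q, with 13 called lower, 7 higher and 9 not called, and a median of -0.02. RUNX2, a factor of bone and of myofibroblasts, went from 581, 755, 786 and 730 to 270, 292, 338 and 346 normalized counts (log2 fold change -1.19 ± 0.12, DESeq2 q = 5.50e-22). OSR1, a factor of early mesoderm, fell by 0.99 on the log2 scale (q = 1.72e-08). TBX3, a T-box factor also known from liver development, went from 597, 903, 825 and 1005 to 2285, 2245, 2316 and 2220 (log2 fold change 1.47 ± 0.11, DESeq2 q = 9.35e-36). EBF2, a factor of brown fat, rose by 0.88 ± 0.29 (q = 0.00693) on 46.8 normalized counts in control cells, a call that was lost under 2 of the alternatives.

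A further 5 factors of this list were named after their values were seen. NR2F2, a nuclear receptor, was the most abundant of them, at 28951 ± 1393 normalized counts (SD, n = 4) in control cells and 17583 ± 814 after OGTi. Its log2 fold change was -0.72 ± 0.06 (DESeq2 q = 9.60e-30). HLX, a homeobox gene of the visceral mesenchyme beside the liver, fell by 0.62 on the log2 scale (q = 4.89e-08). PBX3 fell by 0.76 (q = 1.86e-17). MSX1 rose by 0.84 ± 0.12 (q = 1.57e-11) and HHEX, a factor of the liver bud, rose by 0.72 ± 0.14 (q = 7.73e-07). All 5 moved the same way in 4 of 4 pairs.

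**Figure D5:**
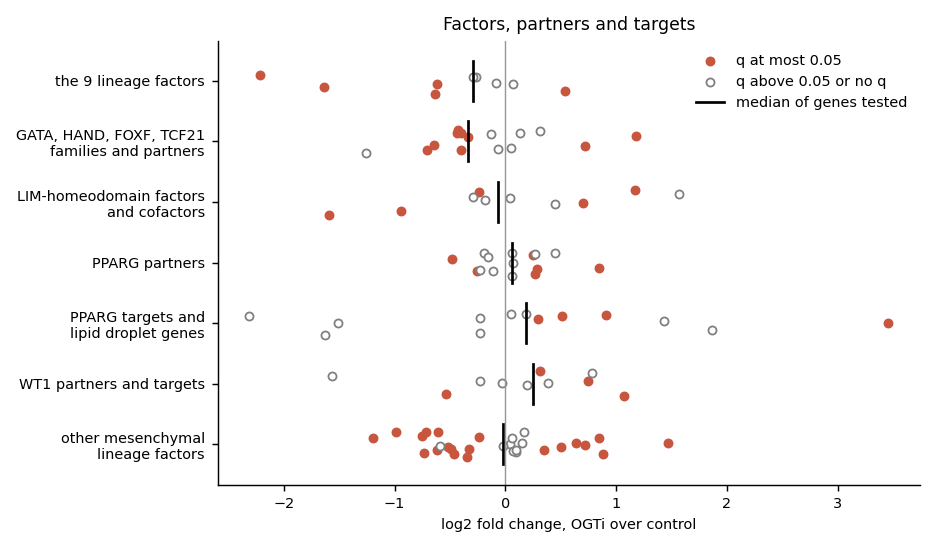
DESeq2 log2 fold change of OGTi over control of each gene tested in the set of 9 factors and in 6 lists of partners, targets and other lineage factors, filled red where q was at most 0.05 and open otherwise, with a black line at the median. Every list holds open points, and only the list of PPARG targets has no red point below 0.

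The genes whose levels over the 8 libraries followed BNC2 most closely were sought among the 10993 genes that averaged 100 or more normalized counts, by the root mean square difference of their centred log2 counts. The 5 closest were PCDHB12 (0.057), HIP1 (0.071), ZNF850 (0.072), KCNMA1 (0.079) and PRDM10 (0.080), where the value in parentheses is that difference in log2 units. PCDHB12 is a protocadherin gene, HIP1 codes for an adaptor of clathrin coats, KCNMA1 for a potassium channel, and ZNF850 and PRDM10 for zinc finger proteins. KCNMA1, for example, had 2188, 2220, 2683 and 2611 normalized counts in control libraries and 1884, 1469, 1580 and 1787 in OGTi libraries, with the highest OGTi value in replicate 1 as for BNC2. Because the measure includes the step from control to OGTi, the choice of these genes fixes their direction and about their size of change, which is given as a description: log2 fold changes ran from -0.68 for PCDHB12 to -0.50 for PRDM10. BNC1 ranked 309 on this measure, at 0.18, and LHX2 ranked 3762.

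The tested genes nearest to each member on both sides, 20 in all at 9.64 to 1072 kb, gave 3 called lower, 5 higher and 12 not called. Among all genes with a q 46.6% were called, so the neighbours were not called more often than genes in general. Beside BNC2, CCDC171, 348 kb away, was higher by 1.18 ± 0.21 on the log2 scale (DESeq2 q = 1.02e-07), at 88.8 ± 16.3 normalized counts in control libraries and 200 ± 17.1 in OGTi libraries. CNTLN, on the other side, had a log2 fold change of 0.25 ± 0.11 with a q of 0.0477, which was lost under 5 of the alternatives. Beside GATA4, FAM167A was called lower, at -0.50 ± 0.19 (q = 0.0261, lost under 5 alternatives), and NEIL2, 9.64 kb away, was not called, at 0.35 ± 0.20 (q = 0.147). These 4 neighbours were named after their values were seen.

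Levels of cell type markers were read from lists. Of 11 stellate and myofibroblast markers 8 had a q, of which 7 were called lower, against 24.0% of all genes. The 1 not called was VIM, at 95086 normalized counts on average in control libraries. The list includes collagen genes whose fall with OGTi in LX-2 cells the study reports, so these calls do not check identity. The summed level of the 11 markers was 205105 to 243484 normalized counts in control and 148141 to 173383 in OGTi libraries. COL1A1, the main fibrillar collagen gene, fell by 0.95 on the log2 scale (DESeq2 q = 1.15e-36) and ACTA2, smooth muscle actin, fell by 1.75 (q = 3.45e-27), with control replicate 2 at 254 normalized counts and the other controls at 818 to 920, while DES, LUM and DCN, which are often used as markers of HSCs, had a mean under 10 normalized counts in both groups. Mesothelial markers, which could accompany WT1 and GATA4, summed to 127 to 163 normalized counts in control libraries and 94.2 to 174 in OGTi libraries. Of 4 mesothelial genes with a q 1 was called lower. It was LRRN4, on few reads, with means of 9.36 normalized counts in control and 1.24 in OGTi libraries and a fall in 3 of 4 pairs. Endothelial markers summed to 49.7 to 91.1 and 17.0 to 33.8, with CDH5 lower (log2 fold change -3.31, DESeq2 q = 5.83e-07). The macrophage and blood list went from between 2507 and 4098 to between 5633 and 9406 through CD68, a lysosomal protein gene that is not limited to macrophages, with 1 of 5 genes called higher (log2 fold change 1.25, DESeq2 q = 1.61e-51), while PTPRC, which defines blood cells, had means of 7.64 and 2.84 normalized counts. The hepatocyte list went from between 47.1 and 105 to between 201 and 299 through CYP2E1, the 1 gene of 3 called higher (41.4 and 200 normalized counts on average, DESeq2 q = 2.90e-14). The quiescent stellate list went from between 3534 and 4396 to between 4898 and 7778, with 2 of 4 genes called higher and 1 lower, and the cholangiocyte list, which shares SOX9 with the mesenchymal list above, from between 702 and 1179 to between 1024 and 1360, with 2 of 3 higher and 1 lower. The part of these shifts in the changes of the lineage factors was not tested.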

How the data were processed

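Messenger RNA of LX-2 cells was measured in 4 control and 4 OGTi libraries, prepared by oligo-dT capture with a strand-specific kit and read as pairs. The authors mapped the reads to hg38 with Bowtie2 2.3.5.1 and estimated counts per gene with RSEM 1.3.1. The deposited files hold expected counts, with no scaling for depth, in which RSEM divides reads that match several genes, so that 12.9% to 16.3% of values per library were fractional. A deposited comparison table, with the mean, log2 fold change, Wald statistic and p-values that the authors obtained with DESeq2 1.36.0, was not used. The members and the gene lists were chosen with earlier results of these data known.

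Expected counts were rounded, and genes that summed to under 10 counts were dropped. The 14895 others were fitted in R 4.3.3 with DESeq2 1.42.0 (Wald test, median-of-ratios size factors, replicate number as a block, fold changes not shrunken, q of at most 0.05), as in the study's methods. Independent filtering left 14028 genes with a q. Deviations from the group mean correlated between libraries of the same number by 0.372, 0.391, 0.165 and 0.327 across 10994 genes (genes are not independent replicates), and control replicate 3 was closer to OGTi replicate 4 (0.343). The pairing comes from the labels and the study's methods. Every 2 libraries of a group differed by more than counting error (chi-square over its degrees of freedom 8.38 to 34.7). The script was tested on simulated data with few changed genes and no replicate effect, which does not cover changes as frequent as those here.

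Intervals are the estimate ± the normal quantile times its standard error. Lengths and positions came from GENCODE release 44 (GRCh38), matched by symbol, and promoters from RefSeq. The genes named from each list were the 2 called genes with the largest fall and the 2 with the largest rise among those averaging 50 or more normalized counts, and others are marked as named after their values were seen, apart from GATA5, LDB1, FABP4 and the markers, named for their roles. A gene that this rule picks is not reported here. Of the lists, that of 6 antisense or divergent neighbours of the members had no gene with a row in the count files. Alternatives were the fit without the block, edgeR 4.0.16 (quasi-likelihood) with and without it, TMM factors, other count filters, no independent filtering, and leaving out each replicate. Ratios within libraries were compared with two-sided exact permutation tests.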

Additional observations from a re-analysis of the deposited data

Results flagged for a closer look

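In groups of 4 libraries a value was marked when its gap to the nearest of the others was large against the range of the group (Dixon's 95% criterion). Of 124 groups examined 6 held such a value, and chance alone marks about 6.2. GATA4 stood at 970 normalized counts in control replicate 1 and at 727 to 757 in the other controls, which is why its groups overlap. In the same library its neighbour NEIL2 stood at 189 normalized counts, against 131 to 140 in the other controls, and NR2F2 at 26866, against 29527 to 29723. Control replicate 2 held 556 normalized counts of ID1, against 780 to 821, and 254 of ACTA2, against 818 to 920. OGTi replicate 1 held 935 normalized counts of PLIN2, against 747 to 770 in the other OGTi libraries.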

How the results depend on the processing

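Of the values of the 9 factors tested under 11 alternatives each, 94 of 99 kept their direction and their side of the threshold, 4 lost the call (TCF21, without each replicate) and 1 turned direction. The latter was FOXF1, whose log2 fold change lay between -0.061 and 0.18 when each replicate in turn was left out. BNC2 ranged from -0.79 to -0.56, the number of factors called lower was 3 each time, and 5127 to 5690 genes were called in all. Without the replicate block DESeq2 called 6307 genes against 6541 with it, edgeR called 7074 with and 6041 without it, and the block changed no call of the 9 factors. LIPE passed the threshold with edgeR and the block, at -0.22, and NEIL2 passed the threshold without replicate 3, at 0.53. Partners of PPARG called lower numbered 1 without replicate 4. With the longest transcript in place of merged exons 3 of the 9 factors kept their rank by level in control libraries, and in OGTi libraries the order also changed, with GATA4 before FOXF1 and WT1 before BNC2. The cause of these changes was not tested. TCF21, PPARG and HAND2 are limited by depth, at 23 counts or fewer per library for TCF21.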
